A study of Rattus norvegicus with 32 samples.

Results

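The mammary glands of 2 inbred rat strains, F344 and WF, were compared by their gene expression. The comparison took the 5 arrays titled as F344 samples and the 5 titled as WF samples, which made 10 of the 32 arrays of the series, and the array of an F344 pool was left out. The whole series asked how rat strains differ in inherited susceptibility to mammary cancer, and its other arrays held Cop, ACI, BUF/N, an F1 hybrid of Cop and F344, and 2 pools. Each array was an Affymetrix rat chip hybridised with biotin-labelled cRNA from 1 sample of total RNA. Both groups were described as normal mammary gland, and no treatment, transgene or mutation was given for either. The labels were silent on age, sex, reproductive state and housing, and on whether a sample was 1 animal or several. The p-values below therefore measure only the spread between samples. That spread was estimated over all 6 groups of 5 arrays fitted together, not from F344 and WF alone.

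As background, the rat mammary gland is a tree of ducts with an inner layer of luminal epithelium, which makes milk, and an outer basal layer of contractile myoepithelial cells. The tree lies in a fat pad with blood vessels, stroma and immune cells, and strips of skeletal muscle run beside the pad. Rat inbred strains carry different haplotypes of the major histocompatibility complex, RT1, whose class I and class II molecules present peptides to T lymphocytes. F344 and WF are both known as strains in which chemical carcinogens induce mammary tumours.

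The labelled tissue was checked against defining markers. Markers of luminal epithelium (7 on the array), basal and myoepithelial cells (9) and adipocytes (9) were measured well above the floor of 18.3 on every one of the 10 arrays. The summed signal of the luminal markers was 4360 to 6168 in F344 and 6353 to 8448 in WF, that of the basal markers 7581 to 9069 and 9867 to 13091, and that of the adipocyte markers 23227 to 26027 and 17574 to 25840.0. Skeletal muscle markers (8 on the array) were also present, with sums of 4358 to 21257 in F344 and 457 to 8226 in WF, and are taken up below. Of the brown adipocyte markers, Dio2, a thyroid hormone deiodinase, was at or below the floor on 9 of the 10 arrays, and Ucp1, the uncoupling protein, had signals of 13.4 to 49.0.

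Measures of array quality differed between the groups. The median signal of an array was 68.9 to 77.1 in F344 and 78.4 to 86.8 in WF. These ranges did not overlap, although the arrays had been scaled to a common trimmed mean. The ratio of the 3′ to the 5′ actin probe set was 1.23 to 1.48 in F344 and 1.01 to 1.25 in WF. The same ratio for GAPDH was 0.910 to 1.01 in F344, and 0.924 to 1.35 in WF, where WF 1 was the highest. F344 arrays correlated with one another at r = 0.964 to 0.973 and WF arrays at r = 0.886 to 0.965, WF 1 being the array least like its group. These correlations run across probe sets, which are not independent. The part of array quality in the results was not tested.

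Of 5039 probe sets tested, 571 (11.3%) differed between F344 and WF at an adjusted p under 0.05 in limma. Signals were higher in F344 at 230 of them (4.56%) and higher in WF at 341 (6.77%). Differences were often large, with 218 called probe sets beyond 2-fold and 51 beyond 4-fold, of which 34 were higher in F344 and 17 in WF. The median difference of all tested probe sets on the log2 scale, F344 minus WF, was -0.08. The called probe sets with 1 gene symbol numbered 469 and stood for 406 genes.

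At 694 tested probe sets (13.8%) the 5 F344 signals did not overlap the 5 WF signals, and 406 of these were called. The split between directions moved with the scaling. The deposited scaling gave 40.3% of calls higher in F344, quantile normalization gave 51.6% (263 against 247), and centring each array on its median gave 66.7% (362 against 181). Centring moved the median difference of all probe sets to 0.06. Without F344 5 the number of calls was 330, and without WF 3 it was 390.0. Taking the level of skeletal muscle genes on each array into the fit left 165 calls, 163 of them among the 571, as described with those genes below.

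**Figure D1:**
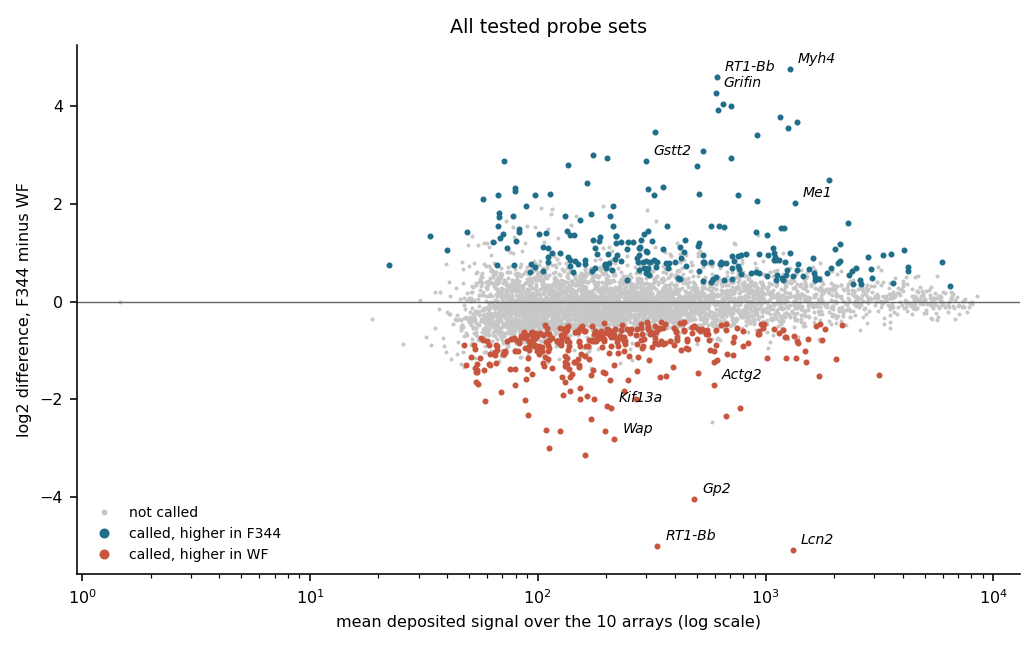
Log2 difference between F344 and WF (vertical axis, F344 minus WF) against the mean deposited signal over the 10 arrays (horizontal axis, log scale) for the 5039 tested probe sets. Grey points were not called, blue points (230) were called higher in F344 and red points (341) higher in WF; RT1-Bb appears at both ends because 2 of its probe sets differed in opposite directions.

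Among called probe sets with 1 gene symbol, the largest fitted difference was that of Lcn2, although 1 probe set of RT1-Bb, described below, has only a lower bound close to it. Lcn2 encodes lipocalin 2, a secreted protein that binds iron-carrying siderophores. Its signal was 80.9, 81.6, 64.6, 93.5 and 41.1 in F344 samples 1 to 5 and 1852, 2009.5, 4792, 2112 and 2020.5 in WF samples 1 to 5. The lowest WF array was far above the highest F344 array, and WF 3 stood above the other WF arrays. The means were 72.3 ± 20.3 (SD, n = 5) in F344 and 2557 ± 1253 (SD, n = 5) in WF, a log2 difference of -5.09 with a standard error of 0.33 (adjusted p = 1.25e-12). That is a 34.2-fold higher level in WF. Group medians in the other strains were 1657 in Cop, 2256 in BUF/N and 67.1 in ACI, so ACI lay near F344, and Cop and BUF/N near WF.

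Lcn2 is a textbook target of the transcription factor NF-kappa B, so its promoter in the RefSeq reference was searched for GGGAATNTCC, a form of the kappa B site, on both strands. The letters occurred in 80 of 33469 promoter windows (0.239%), each of 300 bases from 250 before to 50 after the start, and Lcn2 held them from base 243 before its start. The stretch is shown because it belongs to the gene with the largest fitted value; it is chr3:36081951-36082030 of GRCr8, minus strand, with the kappa B letters in capitals. It is the reference rat's sequence, and the alleles of F344 and WF were not read here.
Lcn2: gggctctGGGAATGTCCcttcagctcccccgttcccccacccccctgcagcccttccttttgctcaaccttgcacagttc

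Gp2, a glycoprotein of secretory granule membranes, differed in the same direction. It measured 59.4, 33.9, 70.2, 107 and 32.4 in the F344 samples and 681, 1074, 713, 1049 and 1056 in the WF samples. Every WF array was above every F344 array, and the log2 difference was -4.03 ± 0.39 (standard error, adjusted p = 1.44e-08). The median was 141 in Cop, 91.6 in ACI and 49.3 in BUF/N, all below the lowest WF array. Lcn2 and Gp2 belong to a list of 10 tested genes of glandular secretion and ion transport, of which 3 were called higher in WF and 0 in F344, with a list median of -0.42. The third was Scnn1a, a subunit of the epithelial sodium channel, at 91.4 to 126 in F344 and 181 to 201 in WF (log2 difference -0.80, adjusted p = 0.016). Scnn1a lost its call with the skeletal muscle level described below as a covariate (adjusted p = 0.172), which left 2 of the 3. The related subunits Scnn1b and Scnn1g had log2 differences of 0.11 and -0.18 that did not pass.

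The RT1 class II genes encode the alpha and beta chains that display peptides on antigen-presenting cells. RT1-Bb, the beta chain of the B molecule, was read by 4 tested probe sets that did not give the same answer. One, X56596_at, gave 1221, 1105, 1088, 1303 and 1123 in F344 and 84.6, 36.5, 45.6, 34.5 and 52.2 in WF. A second, U65217_i_at, gave 2.9, 1.1, 13.8, 5.0 and 4.7 in F344 and 429, 673, 252, 1000.4 and 967 in WF. The first was high in every F344 array and near background in WF, and the second was below the floor in every F344 array and high in every WF array.

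The log2 difference of RT1-Bb was 4.60 ± 0.21 (standard error, adjusted p = 1.28e-16) at X56596_at. At U65217_i_at the WF mean was at least 32.1-fold above the floor (adjusted p = 2.30e-14). The other probe sets, M36151cds_s_at and M36151cds_i_at, were not called. M36151cds_s_at measured 683, 783, 758, 929.9 and 681 in F344 and 1154, 632, 743, 1239.6 and 1291 in WF, and these values overlapped (log2 difference -0.35, adjusted p = 0.368). M36151cds_i_at lay at or below 2.8 on all 10 arrays and had a median of 1710.3 in BUF/N. For X56596_at the medians were 963 in Cop, 912 in ACI and 59.8 in BUF/N, so BUF/N resembled WF there. Whether each probe set matches each strain's allele equally well was not tested, and these values give no direction for the gene as a whole.

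RT1-Db1, the beta chain of the D molecule, was higher in F344 at both of its probe sets. X53054_g_at measured 1737, 1676, 1551, 2093 and 1439 in F344 and 329, 548, 576, 790.4 and 904 in WF, with no overlap (log2 difference 1.5 ± 0.28, adjusted p = 5.04e-04). X53054_at gave 2.18 ± 0.28 (adjusted p = 3.65e-06). The medians of Cop, ACI and BUF/N were 1082, 651 and 973 at X53054_g_at and 160, 131 and 62.5 at X53054_at. Here too the match of the probe sets to each strain's allele was not tested. The alpha chains were not called at any of their probe sets. RT1-Ba gave log2 differences of 0.51, 0.39 and -0.64, and RT1-Da gave 0.08 and -0.50, with adjusted p-values of 0.0661 to 0.871. Of 9 tested class II genes RT1-Db1 alone (11.1%, against 4.56% of all probe sets higher in F344) was called when 1 probe set stood for each gene. Cd74, the invariant chain, had a log2 difference of 0.31 (adjusted p = 0.422).

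All 4 chain genes carry the Y box, a class II promoter element, in the RefSeq reference. The letters CTGATTGG, sought on both strands, were found in 1172 of the 33469 promoter windows (3.5%). They are shown because the 4 chain genes share them. The sequences are the reference rat's, and the alleles of F344 and WF were not read here. The stretches lie in GRCr8 at chr20:4604139-4604218 (minus strand), chr20:4560202-4560281 (minus), chr20:4576975-4577054 (plus) and chr20:4515327-4515406 (plus). All bases precede the start, and capitals mark the Y box.
RT1-Bb: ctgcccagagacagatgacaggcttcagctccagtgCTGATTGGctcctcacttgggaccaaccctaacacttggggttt
RT1-Db1: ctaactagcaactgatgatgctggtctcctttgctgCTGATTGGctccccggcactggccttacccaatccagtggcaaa
RT1-Ba: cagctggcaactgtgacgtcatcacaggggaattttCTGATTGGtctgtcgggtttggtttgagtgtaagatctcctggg
RT1-Da: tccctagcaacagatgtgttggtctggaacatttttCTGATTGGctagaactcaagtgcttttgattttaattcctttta

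**Figure D2:**
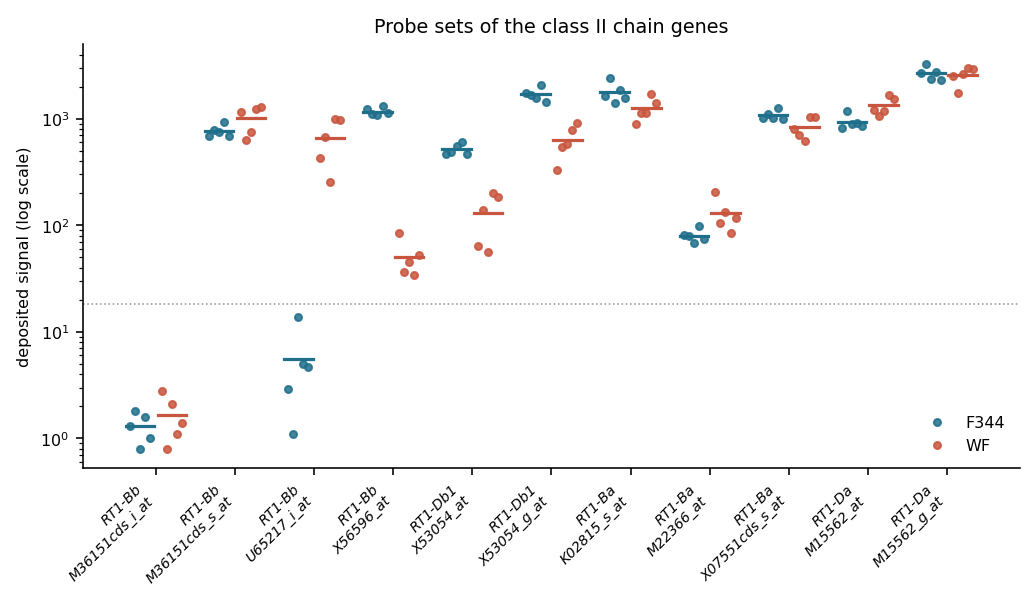
Deposited signal (vertical axis, log scale) at each tested probe set of RT1-Bb, RT1-Db1, RT1-Ba and RT1-Da, 1 point per array (blue F344, red WF, n = 5 each), with the group mean as a line and the floor of 18.3 dotted. The groups part at U65217_i_at and X56596_at in opposite directions and at both RT1-Db1 probe sets, and overlap at the other 7.

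Genes of class I antigen processing differed in both directions. Of 13 tested, 1 (7.69%) was higher in F344 and 3 (23.1%) were higher in WF, with a median of 0.01. The shares of all probe sets were 4.56% and 6.77%. Tap1 and Tap2 form the transporter that carries peptides to class I molecules. Tap1 measured 282, 368, 327, 381 and 383 in F344 and 263, 171, 178, 184 and 210.2 in WF, and Tap2 measured 88.5, 96.3, 124, 109 and 93.8 in F344 and 192, 303, 234, 246 and 189 in WF. Tap1 was higher in every F344 array (log2 difference 0.80, adjusted p = 0.0233) and Tap2 was higher in every WF array (-1.18, adjusted p = 1.88e-04). The call of Tap1 was lost without F344 5, WF 2 or WF 3 (adjusted p 0.0528 to 0.0605). With the muscle level as a covariate Tap2 alone of the 4 was called. Psmb8, an immunoproteasome subunit, was 452 to 586 in F344 and 842 to 1019 in WF (-0.83, adjusted p = 0.00253). RT1-N3, a class I gene of a multigene family whose members may share probes, was 32.2 to 99.0 in F344 and 168 to 274 in WF (-1.90). B2m, the common light chain of class I, had a log2 difference of 0.19 (adjusted p = 0.295).

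Of the named genes higher in F344, Grifin came next to RT1-Bb in the evidence for a difference. It encodes a lectin-like protein known from the lens. The arrays read 1412, 1283, 1076, 904 and 1052 in F344 and 92.7, 44.8, 63.6, 67.7 and 38.9 in WF. The groups were far apart, with means of 1145 ± 201 and 61.5 ± 21.2 (SD, n = 5) and a log2 difference of 4.27 ± 0.19 (adjusted p = 1.28e-16). The medians of Cop (148), ACI (95.9) and BUF/N (203) were all below the lowest F344 array, and the F1 animals' median was 578.

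The leading genes of F344 also held Gstt2, Akr1c3 and Ttpa. Gstt2, a theta class glutathione transferase, read 711, 523, 438, 487 and 464 in F344 and 69.4, 94.3, 63.6, 70.9 and 57.3 in WF. All F344 arrays were above all WF arrays (log2 difference 2.88, adjusted p = 4.89e-13), but a second probe set of the gene, D10026_s_at, gave -0.15 and was not called. Akr1c3, an aldo-keto reductase of steroid metabolism, read 443, 617, 709, 645 and 557 in F344 and 177, 108, 112, 88.8 and 108 in WF. Again the groups did not overlap (2.34, adjusted p = 8.04e-07), and the related Akr1c14 had 1.06 (adjusted p = 0.297). Ttpa, which transfers vitamin E, was 123 to 148 in F344 and 23.9 to 29.9 in WF (2.32, adjusted p = 2.37e-08). BUF/N had a median of 28.6, within the WF range.

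Igfbp5 binds insulin-like growth factors, and its 3 tested probe sets disagreed. rc_AI029920_s_at read 944, 802, 701, 964 and 733 in F344 and 248, 257, 75.6, 159 and 244 in WF, higher in every F344 array (2.19 ± 0.33, adjusted p = 4.48e-05). rc_AI070577_at was higher in every WF array (-1.49, adjusted p = 6.58e-04), and M62781_at gave -0.05 (adjusted p = 0.941). No direction is given for this gene. Gadd45a, a growth arrest gene induced by DNA damage, was higher in F344 at all 4 of its tested probe sets. Its log2 differences were 2.43, 1.37, 1.04 and 0.72, with adjusted p-values of 4.58e-04 to 0.0117. At the brightest of these the signals were 709.5, 591, 459, 433 and 572 in F344 and 465, 342, 340.3, 244 and 299 in WF, and the groups overlapped there, WF 1 lying above F344 3 and F344 4.

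Several other leading genes of F344 rested on 1 of their probe sets. Fgg, the fibrinogen gamma chain, ranged over 134 to 573 in F344 and 18.5 to 85.1 in WF (2.93), and its other probe set gave 1.20 (adjusted p = 0.0862). Etfdh, a mitochondrial electron carrier enzyme, was below the floor on all WF arrays at rc_AI237007_at and 80.3 to 180.1 in F344, at least 7.31-fold higher (adjusted p = 1.26e-05). Its other 2 probe sets gave 0.34 and 0.58 and were not called. S100a1, a calcium-binding protein, was called at 1 of 4 probe sets (1.96, against 0.20 to 0.43 at the others), and Apoc3, an apolipoprotein, at 1 of 3 (2.09, against 0.09 and 0.12). Spock2, a proteoglycan, was 98.3 to 138 in F344 and 8.1 to 40.3 in WF (2.18, adjusted p = 2.00e-06).

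Of the genes higher in WF, Kif13a, a kinesin motor, had the smallest standard error of the 30 leading genes. The signals were 75.8, 78.3, 71.7, 74.6 and 72.4 in F344 and 248, 395, 376, 370.5 and 331 in WF. F344 spanned 71.7 to 78.3, and the lowest WF array was about 3 times the highest F344 array (log2 difference -2.19 ± 0.15, adjusted p = 2.98e-12). The medians of Cop (280.2), ACI (321) and BUF/N (243) also lay above all F344 arrays.

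Rnase1, a secreted ribonuclease, was 23.7 to 128 in F344 and 279 to 388 in WF (-2.65, adjusted p = 0.00617). Dlk1, a surface protein of preadipocytes, was 19.1 to 60.1 in F344 and 99.1 to 309 in WF (-2.65, adjusted p = 1.74e-04). Alb, serum albumin, was higher in WF at all 3 tested probe sets, with log2 differences of -3.00, -1.77 and -1.41, and at the brightest of them read 113 to 184 in F344 and 352 to 470.5 in WF. In a list of 12 liver-type plasma proteins tested, Alb was the 1 gene (8.33%, against 6.77% of all probe sets) called higher in WF. Fgg and Rbp4, the retinol carrier, were called higher in F344 (16.7%, against 4.56%). The call of Rbp4 was lost without F344 1, F344 2, F344 3, F344 5, WF 2, WF 3, WF 4 or WF 5 (adjusted p 0.0539 to 0.104).

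Mia, a small secreted protein of cartilage and pigment cells, was 81.0 to 183 in F344 and 293 to 576 in WF (-1.99). Kcnj8, a subunit of an ATP-sensitive potassium channel of vessels, was 109 to 140.3 in F344 and 327 to 494 in WF (-1.60). Ttll5, a tubulin-modifying enzyme, was 14.1 to 39.2 in F344, 2 arrays being at or below the floor, and 47.5 to 128 in WF (-1.64). All 3 of these genes had adjusted p-values of at most 0.00201. Adcy5, an adenylyl cyclase, differed by -1.85 at 1 probe set and by 0.24, not called, at the other. At the called probe set it was 5.7 to 45.4 in F344, 2 arrays being at or below the floor, and 91.4 to 157 in WF. Hba-a3, an alpha globin gene with near-identical copies, gave -2.04, while the beta globin gene Hbb, the most abundant red cell marker, gave 0.49 (adjusted p = 0.209). Hba-a3 was dim, at 10.4 to 28.6 in F344, 1 array being at or below the floor, and 74.5 to 125.5 in WF. Of 4 tested red cell genes limma called 0, and 0 had an unadjusted p under 0.05. Hba-a3 is not in that list.

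**Figure D3:**
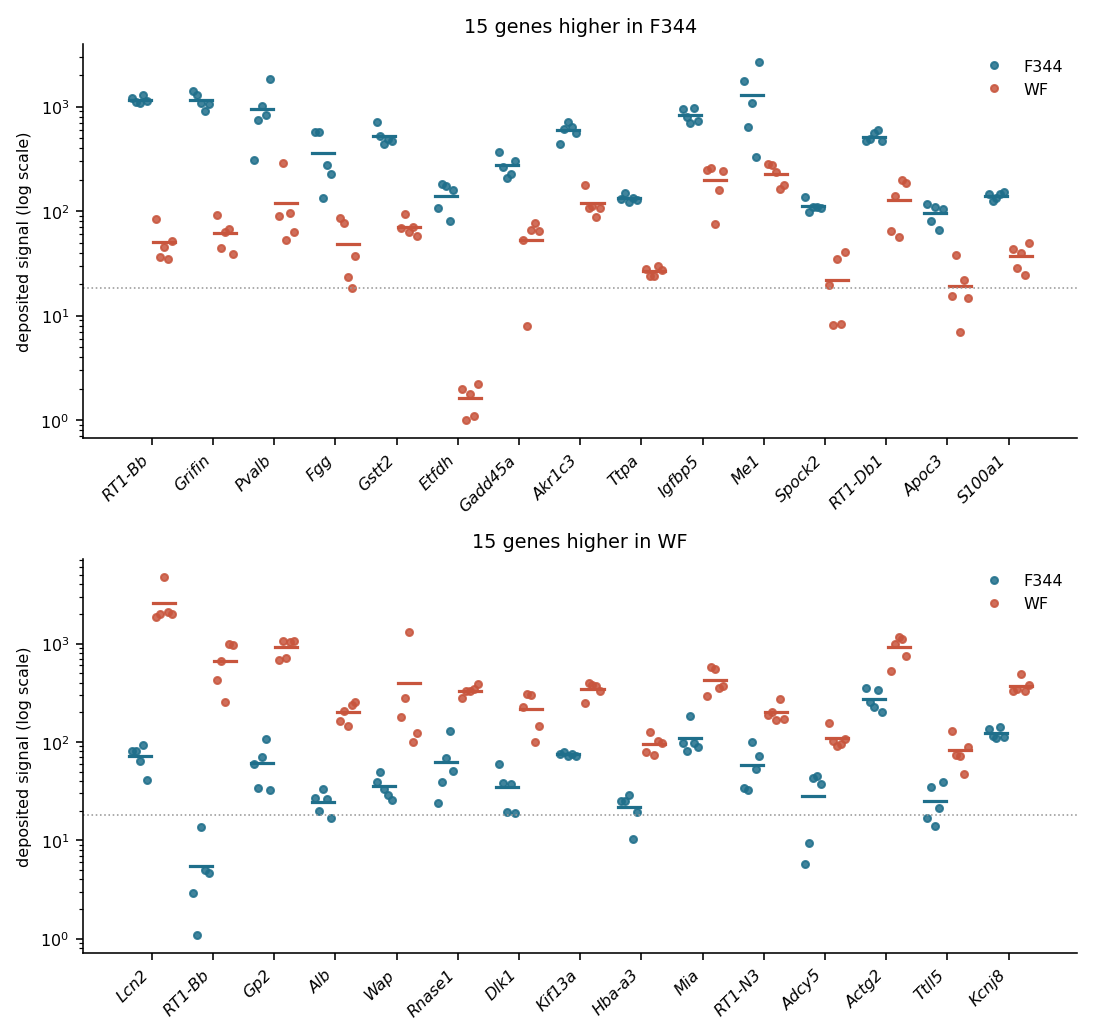
Deposited signal (vertical axis, log scale) on each array for the 15 genes with the largest differences in each direction (upper panel higher in F344, lower panel higher in WF), 1 point per array (n = 5 per strain) with the group mean as a line and the floor of 18.3 dotted. The points of the strains do not overlap for any gene shown, which was a condition of being named.

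Most skeletal muscle genes were higher in F344, but unevenly over the samples. Of 16 tested, 12 (75.0%) were called higher in F344, against 4.56% of all probe sets, and 0 in WF. The median log2 difference was 2.90, against -0.08 for all probe sets. Myh4, a fast myosin heavy chain, read 499.8, 2187, 2515, 2955 and 3751 in F344 and 68.1, 665, 19.1, 97.2 and 25 in WF. F344 1 was the lowest F344 array and lay below WF 2, the highest WF array (log2 difference 4.76 ± 1.05, adjusted p = 0.00293). Ckm, muscle creatine kinase, read 846, 2514, 1611, 2532 and 4094 in F344 and 217, 1578, 47.9, 256 and 24.6 in WF, again with WF 2 above F344 1 (3.68 ± 0.99, adjusted p = 0.0148). The calcium buffer Pvalb was 310.4 to 1844 in F344 and 53.2 to 291 in WF and did not overlap (3.08, adjusted p = 0.00928). Tnnc2, Tnnt3 and Tnni2, the fast troponins, had log2 differences of 4.01, 3.55 and 3.47.

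The mean level of the 16 muscle genes, centred over the 30 arrays on the log2 scale, was 0.39, 1.62, 1.70, 1.87 and 2.54 in F344 and -1.06, 1.13, -1.86, -0.71 and -2.04 in WF. The genes thus varied together, with WF 2 within the F344 range. In whole tissue, fewer cells of a type and less RNA per cell cannot be told apart. The number of muscle genes called higher in F344 was 5 without WF 3, and 7 without F344 5 or without WF 5. Myl2, a slow-fibre myosin light chain, and Myh1 gave 0.02 and -0.71 and were not called.

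Because the muscle level moved with strain, the contrast was refitted with that level as a covariate, an alternative chosen after seeing the data. The calls fell from 571 to 165, of which 74 were higher in F344 and 91 in WF. The covariate and the strain overlap, so such a fit can also remove part of a strain difference. Lcn2, Gp2, Grifin, Kif13a, Gstt2, Akr1c3, Ttpa, both divergent RT1-Bb probe sets and RT1-Db1 were among the 27 of 30 leading genes that kept their call. Pvalb (adjusted p = 0.786), Wap (0.142) and RT1-N3 (0.0547) lost it. Cox6a2, the muscle form of a cytochrome oxidase subunit, went from 1.26 to -0.10. In that fit 0 genes were called in the lists of adipocytes, luminal epithelium, macrophages, T lymphocytes, endothelium and the cell cycle, each of which had 1 or 2 calls without the covariate.

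Muscle-type genes also figured in other energy lists. Of 17 glycolysis genes tested, 4 (23.5%) were called higher in F344, against 4.56% of all probe sets, and 0 in WF. Eno3 (log2 difference 3.01) and Pgam2 (2.18), the muscle forms of enolase and phosphoglycerate mutase, belong to the muscle list too. Their counterparts Eno1 and Pgam1, expressed in most tissues, gave 0.01 and -0.06. The other 2 called were Ldhb, a lactate dehydrogenase (0.55, adjusted p = 0.0264), and Pfkfb1, a regulator of glycolysis (0.76, adjusted p = 0.0297). Another probe set of Pfkfb1, M27886exon_at, gave -0.47 and was not called. The glycolysis count was 1 without F344 5, and 2 without F344 1, F344 3, WF 3 or WF 5. Among 19 respiratory chain genes, Cox6a2 and Ndufa5 (10.5%, against 4.56% of all probe sets) were called higher in F344. A positive difference was found in 16 of 19, and the list median was 0.34. Of these 2 calls 0 were left without F344 3, F344 5, WF 1 or WF 3, and 1 without F344 2, WF 2, WF 4 or WF 5. With the muscle level as a covariate 0 genes of either list were called.

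Several enzymes of fatty acid synthesis were higher in F344. Of 13 tested, 5 (38.5%) were called higher in F344, against 4.56% of all probe sets, and 0 in WF. The list median was 0.60. Me1, malic enzyme, which supplies reducing power for lipid synthesis, read 2390.0, 1569.7, 2237, 738 and 4090.5 in F344 and 657, 460.4, 579.8, 335 and 399 in WF. All F344 arrays were above all WF arrays, F344 5 was the highest and F344 4 the lowest of the F344 arrays (log2 difference 2.02 ± 0.36, adjusted p = 3.52e-04). The other 3 probe sets of Me1 gave 1.42 to 2.18 and were called as well.

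In Acaca and Fasn, which act in turn in the pathway, F344 5 was again the highest and F344 4 the lowest F344 array. Acaca, acetyl-CoA carboxylase, read 266, 210.5, 239, 146 and 508 in F344 and 156, 102, 77.6, 80.4 and 100 in WF (1.33, adjusted p = 0.00166). Fasn, fatty acid synthase, read 3044, 2163, 3052, 1623 and 5064 in F344 and 1914, 1017, 1353, 899 and 1166 in WF (1.18, adjusted p = 0.00617). In both genes F344 4 lay below WF 1, the highest WF array, so the groups overlapped. Pc, pyruvate carboxylase, did not overlap, with 619 to 1332 in F344 and 267 to 372 in WF (1.54, adjusted p = 1.41e-05). Scd, stearoyl-CoA desaturase, gave 0.81 (adjusted p = 0.0223), and Acly, the citrate lyase, gave 0.68 and was not called (adjusted p = 0.109). Srebf1, a transcription factor of this pathway, gave 0.02. With the muscle level as a covariate 3 of the 13 were called, Fasn being one that was lost (adjusted p = 0.0658).

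Of 16 adipocyte genes tested, 1 (6.25%) was called higher in F344, near the 4.56% of all probe sets, and 0 in WF. The called gene was Pparg, the nuclear receptor that drives adipocyte differentiation. It was 615 to 900.0 in F344 and 335 to 534 in WF (log2 difference 0.82, adjusted p = 0.0241). The call of Pparg was lost without F344 2, F344 3 or WF 3 (adjusted p 0.0507 to 0.0774). Plin1, Lipe, Cfd and Lep, which mark the fat droplet, lipolysis and secreted products of adipocytes, gave 0.19, 0.24, -0.11 and -0.09. Larger differences that were not called were those of Slc2a4 (1.09), Fabp4 (0.71) and Pck1 (-0.96). Fabp4 was 3373 to 4472 in F344 and 1881 to 2640 in WF, without overlap (adjusted p = 0.0994). A positive difference was found in 10 of the 16 genes. Lpl, the lipase that feeds fat into adipocytes, stood in the list with a probe set at 0.34 (adjusted p = 0.0533), while its other 2 probe sets were called at 0.95 and 1.05. At L03294_g_at the signals were 5992, 5435, 4668, 4906 and 5951 in F344 and 3569, 1756, 1988, 2836 and 3286 in WF, with no overlap. Of 4 brown adipocyte genes tested, 1 was called in each direction. Cidea, a lipid droplet protein, was 302 to 516 in F344 and 150.0 to 267 in WF (1.01, adjusted p = 4.39e-04). Acot2, an acyl-CoA thioesterase, was 118 to 164 in F344 and 146 to 332 in WF, ranges that overlap (-0.75, adjusted p = 0.038). Its call was lost with quantile normalization (0.0975), with arrays centred on the median (0.128) and without F344 2, F344 3, F344 4, F344 5, WF 2, WF 3, WF 4 or WF 5 (adjusted p 0.0515 to 0.112). Of 12 sterol synthesis genes 1 (8.33%, against 4.56% of all probe sets) was called higher in F344. This was Dhcr7, which makes cholesterol from its last precursor (1.12, adjusted p = 0.00186).

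Several genes of smooth muscle and myoepithelium were higher in WF. Of 12 tested basal and smooth muscle genes, 4 (33.3%) were called higher in WF, against 6.77% of all probe sets, and 0 in F344. The list median was -0.52, and with the muscle level as a covariate 3 were called. Myh11, smooth muscle myosin, read 367, 320.5, 378, 444 and 349 in F344 and 818, 949, 968, 816 and 734 in WF. No array of one strain reached the other strain (log2 difference -1.21 ± 0.18, adjusted p = 3.93e-05). Cnn1, calponin, read 502, 485, 328, 504 and 368 in F344 and 1039, 1144, 1003, 709.5 and 703 in WF (-1.07, adjusted p = 9.96e-05). Tagln, transgelin, was 859 to 1170.1 and 1489 to 2066 (-0.80, adjusted p = 2.05e-04). Krt5, the basal keratin, was 534 to 928 and 1338 to 2089 (-1.15, adjusted p = 0.0386), and its call was lost when arrays were centred on the median (adjusted p = 0.0888) and without F344 3, F344 4, F344 5, WF 2, WF 3 or WF 4 (adjusted p 0.0512 to 0.1095).

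Actg2, the smooth muscle gamma actin, which is not in that list, was among the 15 leading genes of WF. It read 356, 254, 227, 336 and 201 in F344 and 529, 998, 1177, 1126 and 745 in WF, without overlap (-1.71 ± 0.21, adjusted p = 1.30e-06). Acta2, the smooth muscle alpha actin, gave 0.00 at its brightest probe set, while X06801cds_i_at was called at -1.53 and X06801cds_f_at gave -0.81 (adjusted p = 0.184). Krt14, Myl9 and Tpm2 gave -0.83, -0.72 and -0.32 and were not called. Of the list's 12 genes 4 had a positive difference, none of them called at the brightest probe set. The largest difference in the list was that of Des, 1.65 (adjusted p = 0.0859), with 24.4 to 164 in F344 and 14.4 to 110.5 in WF. Oxtr, the oxytocin receptor, gave 0.74, Tpm1 0.48 and Cav1 0.11. The list's mean level, centred as for muscle, was -0.09 ± 0.15 (SD, n = 5) in F344 and 0.17 ± 0.27 in WF. Tpm1, which makes tropomyosins of several muscle types by splicing, was called in opposite directions at X02412_at (2.94) and M60666_s_at (-1.01).

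Luminal markers gave 1 call in each direction. Of 10 tested, 9 had a negative difference and the median was -0.40. The calls were Krt8, a luminal keratin higher in WF, and Cd24, a surface glycoprotein higher in F344. Krt8 was 608 to 782 in F344 and 922 to 1590.3 in WF (-0.67, adjusted p = 0.0406), and lost its call with arrays centred on the median (0.165) and without F344 1, F344 2, F344 3, F344 4, F344 5, WF 1, WF 2 or WF 3 (adjusted p 0.0504 to 0.132). Cd24 was 906 to 1396 in F344 and 612 to 1012 in WF at U49062_at (0.59, adjusted p = 0.0264). That call was lost without F344 1, F344 2, F344 4, WF 1, WF 4 or WF 5 (adjusted p 0.0535 to 0.0746). The Cd24 probe sets rc_AI171462_s_at and U49062_g_at gave -0.07 and -0.01 and were not called, so the Cd24 difference rests on 1 probe set. Epcam and Krt19 gave -0.50 and -0.38 and were not called, and Krt18 gave -0.39, not called, at its brightest probe set and -0.67, called, at the other (adjusted p = 0.0391).

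Milk protein genes varied strongly from sample to sample. Of 10 tested, 2 were called higher in WF and 0 in F344, with a median of -0.22. Wap, the whey acidic protein, read 39.3, 49.4, 33.1, 28.8 and 25.7 in F344 and 181, 282, 1308, 99.4 and 123 in WF, where WF 3 was far above the rest (-2.81 ± 0.71, adjusted p = 0.00965). Csn3, kappa casein, read 2699, 2620.3, 686, 1344 and 1198 in F344 and 5937, 3778, 7352, 2891 and 3018 in WF. All WF arrays were above all F344 arrays (-1.51 ± 0.42, adjusted p = 0.0197), but the call was lost without F344 3, F344 5, WF 1 or WF 3 (adjusted p 0.0523 to 0.0785). Csn2, beta casein, spanned 33.7 to 572 in F344 and 178 to 3201 in WF and was not called (-2.47, adjusted p = 0.0946). Csn1s1, alpha casein, and Lalba, alpha lactalbumin, gave -0.13 and 0.25. With the muscle level as a covariate 0 milk protein genes were called.

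**Figure D4:**
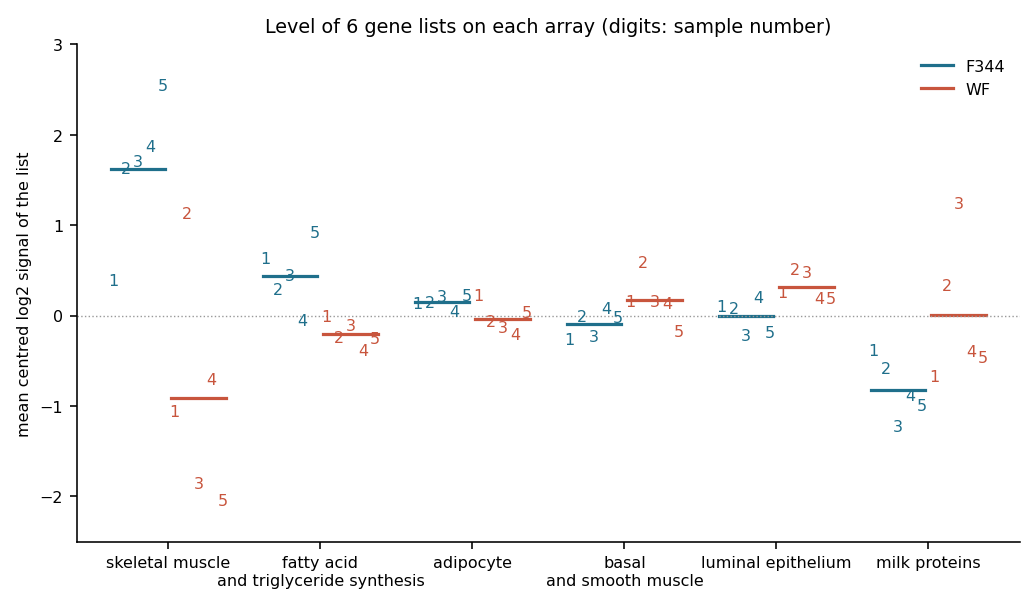
Mean level of 6 gene lists on each array (vertical axis, log2 signal centred per gene over the 30 arrays), with digits for the sample number, blue for F344 and red for WF, and a line at the mean of the 5. Skeletal muscle spans the widest range, with WF 2 at 1.13 among the F344 arrays and F344 1 at 0.39, and milk proteins are highest in WF 3 at 1.24.

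Of 24 extracellular matrix genes 4 (16.7%) were called higher in WF, against 6.77% of all probe sets, and 0 in F344. Bgn, the proteoglycan biglycan, gave -0.72 (adjusted p = 7.05e-04), Col2a1, a cartilage collagen, -1.12, Timp1, a metalloproteinase inhibitor, -0.57 and Mmp2, a metalloproteinase, -0.58. The main fibrillar collagens Col1a1, Col1a2 and Col3a1 gave -0.12, 0.03 and -0.05 and were not called. The list median was -0.13 and became 0.01 with arrays centred on the median, where 2 genes were called. Without F344 5 or without WF 3 the number was also 2, and with the muscle level as a covariate it was 0. Col2a1 lost its call without WF 3 (adjusted p = 0.0521), Timp1 without F344 5 (adjusted p = 0.0689), and Mmp2 without F344 3, F344 4, F344 5 or WF 3 (adjusted p 0.054 to 0.102).

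Markers of blood and immune cells showed few calls. Of 10 macrophage genes 2 were called higher in F344, Aif1 (0.82, adjusted p = 0.0401) and Lyz2, a lysozyme (0.80, adjusted p = 0.0415), and C1qb and C1qc, complement subunits, gave 0.37 and -0.02. Aif1 lost its call without F344 2, F344 3, F344 4, F344 5, WF 1, WF 2 or WF 3 (adjusted p 0.0668 to 0.111), and Lyz2 with quantile normalization (0.0683) and without F344 1, F344 2, F344 3, F344 4, F344 5, WF 1, WF 2 or WF 3 (adjusted p 0.0593 to 0.121). Ptprc, the common leukocyte antigen CD45, was called at 1 of 3 probe sets (K03039mRNA_s_at, 1.41, adjusted p = 0.0126), with 134 to 168 in F344 and 30.5 to 119 in WF. M10072mRNA_s_at gave 1.31 and M25823_s_at gave -0.46, in the opposite direction, and neither was called. Of 9 T lymphocyte genes 1 (11.1%, against 6.77% of all probe sets) was called higher in WF, Thy1, a surface protein also made by fibroblasts. It was 380.5 to 484 in F344 and 557 to 1422 in WF (-1.09, and -1.11 at its other probe set). The T cell receptor genes Cd3d and Cd3g gave 1.89 and 0.93 and were not called.

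Of 6 mast cell genes 1 (16.7%, against 6.77% of all probe sets) was called higher in WF, Tpsab1, a tryptase. It read 89.3, 89.0, 100.4, 77.8 and 86.0 in F344 and 171, 309, 287, 224 and 283 in WF, with no overlap (-1.5 ± 0.19, adjusted p = 3.65e-06). The mast cell proteases Cpa3, Cma1 and Tpsb2 gave 0.33, -0.35 and -0.27 and were not called. Of 8 endothelial genes Kdr, a receptor for vascular growth factor (0.99, adjusted p = 0.00745), and Icam1, an adhesion molecule (0.71, adjusted p = 0.0267), were called higher in F344, and Pecam1, Flt1 and Selp gave -0.06, 0.01 and -0.01. Icam1 lost its call without F344 2, F344 4, WF 2, WF 3 or WF 5 (adjusted p 0.0505 to 0.0877). Its other probe set, D00913_at, gave 0.17 and was not called. Among 12 cytokine and receptor genes 2 (16.7%) were called higher in F344 and 1 (8.33%) higher in WF, against 4.56% and 6.77% of all probe sets. Higher in F344 were Il6st, the shared receptor chain of the interleukin-6 family (0.68), and Il1r2, a decoy receptor of interleukin-1 (0.85). Pf4, a platelet chemokine (-0.60), was higher in WF. Il1r2 lost its call without F344 2, F344 5 or WF 2 (adjusted p 0.0576 to 0.115), and Pf4 with arrays centred on the median (adjusted p = 0.102) and without F344 4, F344 5 or WF 3 (adjusted p 0.051 to 0.0942).

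Enzymes of detoxification differed singly. Of 13 glutathione transferases Gstt2 was called higher in F344 and Gsta4, which clears lipid peroxidation products, higher in WF, 7.69% each way. The shares of all probe sets were 4.56% and 6.77%. Gsta4 read 194, 166, 179, 187 and 206 in F344 and 401, 483, 405, 382 and 463 in WF, with no overlap (-1.19, adjusted p = 4.34e-04). Its other probe set, X62660mRNA_at, gave -0.57 and was not called. Of 21 phase I and II enzymes 3 (14.3%) were called higher in F344, Akr1c3, Maoa and Maob, against 4.56% of all probe sets. Cyp2e1 and Aldh3a1, 2 of the 21 (9.52%), were called higher in WF, against 6.77%. The monoamine oxidases Maoa and Maob gave 0.47 and 0.75, and the call of Maoa was lost without F344 3, F344 5, WF 3 or WF 4 (adjusted p 0.0517 to 0.0856). Aldh3a1, an aldehyde dehydrogenase, gave -0.75, a call lost with quantile normalization (adjusted p = 0.0621), with arrays centred on the median (0.0706) and without F344 2, F344 3, F344 4, WF 1, WF 3 or WF 5 (adjusted p 0.0504 to 0.091). Cyp2e1, a cytochrome P450, was highest in WF 5, whose signal of 1759 was far above the 391 to 560.0 of the other WF arrays (-1.46, adjusted p = 0.02). Its call was lost without F344 3, F344 5 or WF 5 (adjusted p 0.0525 to 0.0765). Cat, catalase, was 867 to 1131 in F344 and 381 to 804 in WF (0.96, adjusted p = 0.0138).

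Besides Lcn2, Grifin and Kif13a, 10 tested genes were named whatever their result, and at the brightest probe set none of these 10 was called by limma. Pgr, the progesterone receptor, gave -0.12, Prlr, the prolactin receptor, -0.48, Igf1 -0.05 and Erbb2, a growth factor receptor, -0.47. Mgmt, a DNA repair enzyme, Ephx1, an epoxide hydrolase, Nqo1, a quinone reductase, Cyp1b1 and the sulphotransferase Hs6st1 gave 0.47, 0.43, 0.58, -0.15 and -0.13. Their adjusted p-values ran from 0.0818 (Erbb2) to 0.875 (Pgr). Erbb2 (101 to 134 in F344, 146 to 177 in WF) and Mgmt (378 to 462, 231 to 372) did not overlap between the strains. Another Mgmt probe set, X54862_i_at, gave -0.30 and was not called. Mgmt, Erbb2 and Prlr were called with array weights (adjusted p = 0.0157, 0.0131 and 0.00637), with the 10 arrays alone, and without 4 arrays of ACI and F1. Ghr, the growth hormone receptor, gave 0.30 at its brightest probe set, but Z83757mRNA_at and Z83757mRNA_g_at were called at 0.81 and 1.23, the last with 245 to 456 in F344 and 87.6 to 220.0 in WF. A second probe set of Prlr, L48060_s_at, was called higher in WF (-0.67, adjusted p = 0.0134). Esr1 and Cdkn1a did not reach the level needed for testing.

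Among 20 growth factor receptors and ligands tested, 1 (5.0%, near the 6.77% of all probe sets) was called higher in WF. This was Ddr1, a collagen receptor kinase of epithelium. It read 529, 599, 662, 580.5 and 582 in F344 and 2764, 1261, 964, 1014 and 1166 in WF, with WF 1 highest (-1.16, adjusted p = 5.58e-04), and its other 2 probe sets were called in the same direction (-0.83 and -0.80). Egfr and Erbb3 gave -0.53 and -0.62 and were not called. In the list of insulin-like growth factor genes Igfbp2, a binding protein, was called higher in WF (-1.24, adjusted p = 0.0328), with 256 to 378 in F344 and 361 to 1640.2 in WF, which overlap. That call was lost without a filter (adjusted p = 0.0754), with arrays centred on the median (0.0739), with the replicate block (0.0508) and without F344 1, F344 2, F344 3, F344 5, WF 1, WF 2 or WF 4 (adjusted p 0.0542 to 0.112). A second Igfbp2 probe set, A09811cds_s_at, did not overlap and was also called (-1.33, adjusted p = 0.0197).

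Of 16 cell cycle genes 1 was called, Pttg1, the securin that holds sister chromatids together, higher in WF (-1.18, adjusted p = 0.00306). That share, 6.25%, is near the 6.77% of all probe sets, and with the muscle level as a covariate 0 were called (adjusted p of Pttg1 = 0.0942). Of 12 chaperones of the endoplasmic reticulum 1 (8.33%) was called, Hyou1, at 142 to 169 in F344 and 247 to 403 in WF (-1.02, adjusted p = 0.0108). That share too is near the 6.77% of all probe sets. No gene was called in the lists of cytosolic ribosomal proteins (34 tested, median 0.05), proteasome and ubiquitin (20, 0.10), TGF-beta and BMP signalling (18, -0.19) and prolactin and growth hormone signalling (8, 0.02). At an unadjusted p under 0.05 in limma these lists held 3, 1, 3 and 2 genes in that order. Under other settings 1 named gene of each list was called. Rps24, of the small ribosomal subunit, was called in 4 settings, among them without F344 1 (adjusted p = 0.0457). Psma1, a proteasome subunit, was called in 3, among them with arrays centred on the median (0.0391). Msx1, a homeobox factor of BMP signalling, did not overlap between the strains and was called in 6, with the lowest value on the 10 arrays alone (0.00877). Cish, an inhibitor of cytokine signalling, was called in 2, with the lowest value on the 10 arrays alone (0.01996).

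**Figure D5:**
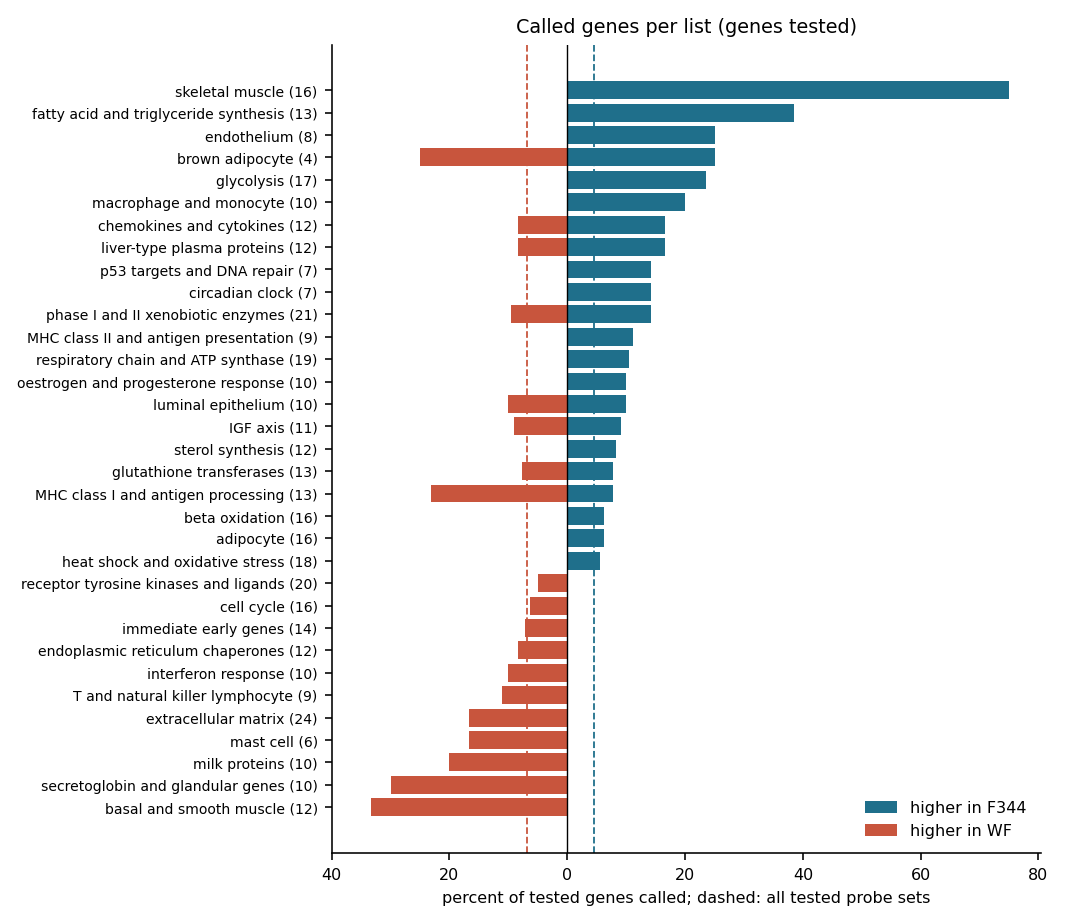
Percent of tested genes called higher in F344 (blue, to the right) or higher in WF (red, to the left) in each list with at least 1 call, with the number tested in brackets and 1 probe set per gene. Dashed lines mark the shares over all tested probe sets, 4.56% and 6.77%; skeletal muscle (75.0%) and fatty acid synthesis (38.5%) reach farthest on the F344 side, and basal and smooth muscle (33.3%) farthest on the WF side.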

How the data were processed

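Per the labels, the deposited values were signal intensities on a linear scale from the authors' run of Microarray Suite 5.0 (Affymetrix), at 8799 probe sets (59 controls) on each of 32 arrays. Coordinates of a genome build for the probes were not used here. Near-equal trimmed means showed that the arrays had been scaled to one target. Array number limits the precision. A floor of 18.3 (the 25th percentile over the 30 arrays) replaced lower signals before the log2 transform. Probe sets with at least 5 of 30 single-sample arrays above the overall median of 78.4 were tested (5039).

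The 6 groups of 5 arrays were fitted together with limma 3.58.1 in R 4.3.3 (variance trend, 29.58 degrees of freedom), and the contrast F344 minus WF was adjusted by the Benjamini-Hochberg method at 0.05. The 2 pools were left out. A 1-symbol annotation was held by 7018 probe sets, several by 308 and none by 1473. Symbols followed the array's annotation, updated by identifier for 6994.

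Named genes were the 15 in each direction with the largest called difference, 1 symbol and no overlap. Up to 4 called members of each of 39 lists by adjusted p, or else the 1 nearest, and 15 preset genes (13 tested) were named too. List members and presets used the brightest tested probe set; other genes and probe sets in the text were picked after their values were seen. Members and lists were chosen with earlier results of these data known. Lists are described by counts and medians, without a set test. Promoters were read from RefSeq's GRCr8. The fit was tested on simulated data. Alternatives changed floor, offset, filter, scaling, weights, trend, arrays and replicate block, 1 at a time, and the muscle covariate was added after seeing the data.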

Additional observations from a re-analysis of the deposited data

Results flagged for a closer look

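Within each strain, 206 sets of 5 signals of the named probe sets were examined for an array standing apart from the other 4, and 14 were found; chance alone gives about 1 in 20.

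Among genes higher in F344, WF 2 was low for Gadd45a (8.0) and high for Apoc3 (37.7). Among genes higher in WF, WF 3 was high for Lcn2 (4792), F344 3 was high for Mia (183), and WF 1 was high for Adcy5 (157) and Ddr1 (2764). At these probe sets the strains did not overlap, but other probe sets of Gadd45a, Apoc3, Adcy5 and Ddr1 did.

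WF 2 was high for the muscle enolase Eno3 (156), and F344 1 was low for the muscle myosin Myh4 (499.8). WF 3 was low for Ldhb (867), F344 4 was high for Lyz2 (3289.8), WF 5 was high for Cyp2e1 (1759) and WF 2 was low for Il1r2 (55.7). For genes that did not differ by the test, F344 1 was high for Rps24, a ribosomal protein (428), which was called without that array (adjusted p = 0.0457), and F344 2 was high for Igf1 (2112).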

How the results depend on the processing

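The main count of 571 called probe sets (230 higher in F344, 341 higher in WF, 218 beyond 2-fold) rose with array weights to 1144 (436 and 708). It was 857 with the 10 arrays alone (346 higher in F344) and 1005 when 4 other arrays (ACI 2, ACI 5, F1 2, F1 3) were dropped (403 and 602). Centring on the median gave 362 higher in F344 and 181 in WF, and an offset of 50 left 118 beyond 2-fold. With the skeletal muscle level as a covariate, chosen after seeing the data, 165 were called (74, 91, and 115 beyond 2-fold), and Cox6a2 turned to -0.10. Leaving out 1 array at a time gave 330 (without F344 5) to 532 calls, 140 to 223 higher in F344, 190 to 315 higher in WF (226 without WF 3) and 164 to 227 beyond 2-fold. The replicate block gave 518 calls, 506 of them among the 571. Same-numbered arrays deviated together with r of -0.20 to 0.11, within the -0.29 to 0.31 of differently numbered arrays. No shared deviation by number was seen, but so few arrays cannot exclude a pairing of the samples. Floors, filters, no variance trend and quantile normalization gave 500 to 591 calls. Of 87 named probe sets called, 58 kept the call in each of the other 22 settings that tested them, among them all 30 with the largest differences, 29 lost it in at least 1, and 42 kept it with the muscle covariate. The causes of these changes were not tested. Signals near the floor bound the differences of dim probe sets.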

Other observations

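Several probe sets of a gene did not always give the same result. Of the 571 called probe sets, 251 had another tested probe set of the same gene. For 108 of these another was called in the same direction, for 135 none was called, and for 8 one was called in the opposite direction. The 8 belonged to RT1-Bb, Igfbp5, Nap1l1 and Tpm1. Nap1l1, a histone chaperone, was 317 to 372 in F344 and 135 to 249.5 in WF at AF062594_g_at (log2 difference 0.89, adjusted p = 0.0146). At rc_AA859920_at it was 183 to 211 in F344 and 257 to 629.9 in WF (-0.91, adjusted p = 0.00999). Neither pair of ranges overlapped.

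Other strains set against the 2 strains compared gave several patterns, as group medians without a test. Spock2 had 104 in BUF/N, near F344, and 9.0 in Cop, near WF. For Fgg, BUF/N (212) lay within the F344 range, and Cop (11.2) and ACI (5.4) were below the floor. For the 4 contractile genes Myh11, Cnn1, Tagln and Actg2, Cop had medians of 369.8, 350.4, 802 and 405. BUF/N had 645, 790.2, 1435 and 649.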
